A study of Mus musculus with 8 samples.

Results

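The Kruppel-like factors are zinc finger proteins that bind GC-rich and CACCC-type DNA and either activate or repress transcription. Expression of 9 of their genes, Klf2, Klf3, Klf4, Klf5, Klf6, Klf9, Klf10, Klf13 and Klf15, was compared in the ventral prostate between transgenic mice that overexpress an active form of p110 beta, which is one of the catalytic subunits of PI3-kinase, and wild type mice. The 9 genes were measured by 23 of the 22690 probe sets of an Affymetrix mouse array, taken as every probe set that the platform annotation gives to one of them and to no other gene. The transgenic group held 4 samples labelled mouse prostatic intraepithelial neoplasia (mPIN), a lesion in which abnormal epithelium fills the gland without invading, and the wild type group held 4 samples labelled normal. All 8 were FVB ventral prostates of mice aged 20 weeks. The promoter and cell type that drive the transgene, and whether the arrays are of separate animals, are not given in the sources used here. The p-values below therefore speak of the spread among these 8 arrays, some of which may be technical. By its design text, the study set transgenic against normal prostate.

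The family is set apart by conserved C-terminal zinc fingers, while the N-terminal parts differ and recruit different partners. Klf4 and Klf5 are known for opposing roles in many epithelia, where Klf4 marks cells leaving the cell cycle and Klf5 marks dividing progenitor and basal cells. Several members (Klf2, Klf4, Klf6, Klf10) are induced within minutes to hours by growth factors or stress, and Klf9 and Klf15 are known targets of the glucocorticoid receptor. KLF5 and KLF6 have been studied as growth suppressors lost in human prostate cancer.

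Values are log2 expression values made by the submitters with RMA, in which a difference of 1 is a doubling of signal, and fold changes are transgenic minus wild type. The 9 genes were chosen by their log2 values in this same comparison, that is, with the fold changes of transgenic over wild type already known. Their fold changes and calls are therefore a description of these 8 arrays, and no test of them is offered. A gene is called past the threshold where the limma fit over all 22626 probe sets other than controls gave it a Benjamini-Hochberg adjusted p below 0.05. For counts of genes, each gene was represented by its probe set with the highest mean.

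Of the 9 genes, 3 were past the threshold and higher in transgenic prostates, Klf3, Klf4 and Klf6, where 5.99% of all 12393 named genes were. Klf15 alone among the 9 was past it and lower, where 4.98% of all genes were. The other 5, Klf2, Klf5, Klf9, Klf10 and Klf13, did not pass. The values of the transgenic and wild type arrays did not overlap for 4 of the 9 with the transgenic arrays higher (8.09% of all genes) and for Klf15 with the transgenic arrays lower (8.20% of all genes). In either direction, 4 of the 9 were past the threshold (11.0% of all genes) and 5 of the 9 did not overlap (16.3% of all genes). The median log2 fold change was 0.27 over the 9 genes and -0.04 over all genes.

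The promoters of the 4 genes past the threshold are shown so that the sequence before the start of each can be compared. They are the 250 bases before the transcription start in the RefSeq table (build GRCm38.p6), written 5′ to 3′ on the strand of the gene. Capitals mark matches on either strand to a GC box (GGGCGG), the kind of sequence that Kruppel-like and Sp factors bind, and to an E-box (CACGTG). The Klf4 promoter lies at chr4:55532476-55532725, minus strand, that of Klf3 at chr5:64803271-64803520, plus strand, that of Klf6 at chr13:5861239-5861488, plus strand, and that of Klf15 at chr6:90462326-90462575, plus strand.
Klf4 promoter: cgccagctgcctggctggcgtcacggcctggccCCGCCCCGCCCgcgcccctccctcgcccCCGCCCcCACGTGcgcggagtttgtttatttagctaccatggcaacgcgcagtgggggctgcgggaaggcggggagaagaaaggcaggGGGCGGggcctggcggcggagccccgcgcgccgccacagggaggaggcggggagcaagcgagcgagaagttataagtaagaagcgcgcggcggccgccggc
Klf3 promoter: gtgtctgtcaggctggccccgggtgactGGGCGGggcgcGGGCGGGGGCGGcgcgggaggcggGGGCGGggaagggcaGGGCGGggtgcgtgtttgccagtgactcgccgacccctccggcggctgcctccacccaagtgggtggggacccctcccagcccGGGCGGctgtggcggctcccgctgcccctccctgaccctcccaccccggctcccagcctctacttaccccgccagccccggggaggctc
Klf6 promoter: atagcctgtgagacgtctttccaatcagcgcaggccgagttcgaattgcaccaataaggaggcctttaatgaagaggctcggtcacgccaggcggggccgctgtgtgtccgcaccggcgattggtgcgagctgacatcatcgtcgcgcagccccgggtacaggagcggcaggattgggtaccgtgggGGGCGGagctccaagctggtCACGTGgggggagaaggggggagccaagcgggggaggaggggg
Klf15 promoter: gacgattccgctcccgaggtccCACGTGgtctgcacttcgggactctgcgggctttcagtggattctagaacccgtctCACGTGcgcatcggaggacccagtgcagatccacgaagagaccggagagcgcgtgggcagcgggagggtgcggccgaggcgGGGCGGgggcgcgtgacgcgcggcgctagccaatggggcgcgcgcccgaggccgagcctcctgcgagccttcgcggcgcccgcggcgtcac

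GC boxes numbered 6 in the Klf3 promoter, 4 in that of Klf4 and 1 each in those of Klf6 and Klf15. In Klf4, 2 of them share a base. Members that did not pass held them too, with 3 in the Klf13 window and 2 in that of Klf2, while Klf9 held 0. Of the 32851 promoters in the table, 32.7% held at least 1 GC box within the same 250 bases and 8.47% held 3 or more. E-boxes numbered 2 in the Klf15 promoter and 1 each in those of Klf4 and Klf6, where 6.02% of all promoters held any. In Klf15 they began at positions -228 and -172 from the start. A forkhead site was searched only as the exact letters GTAAACA on either strand, and other spellings of it were not searched. FOXO factors bind this kind of sequence, and PI3-kinase signalling acts on it through them. These exact letters were in none of the 4 windows shown and in 3.17% of all promoters. Among the 7 members with a promoter in the table, the Klf9 window held them, beginning at position -100. Klf5 and Klf10 were not among the 7. These are matches of letters. The GC content of the 4 windows shown was 64.8% (Klf6) to 78.4% (Klf3) and that of the Klf9 window was 59.6%, against a median of 52.4% over all promoters. The matches say nothing of which factors were bound.

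Klf4, a zinc finger factor of differentiated and barrier epithelium, changed most among the 9. Its probe set with the higher mean stood at 8.90, 9.26, 8.96 and 9.16 in the transgenic arrays, against 5.91, 6.77, 6.37 and 6.28 in the wild type arrays. The second probe set stood at 9.06, 9.21, 8.98 and 9.03 in transgenic arrays, against 5.98, 6.72, 5.69 and 5.29 in wild type. Both probe sets thus separated the groups by more than 2 log2 units, with gaps of 2.13 and 2.25 between the lowest transgenic and the highest wild type array. The group means were 9.07 ± 0.17 in transgenic and 6.33 ± 0.35 in wild type samples for the first (SD, n = 4 each), a log2 fold change of 2.74 ± 0.17 (SE) or 6.67-fold. For the second the means were 9.07 ± 0.10 in transgenic and 5.92 ± 0.61 in wild type samples (SD, n = 4 each), a log2 fold change of 3.15 ± 0.24 (SE) or 8.89-fold. The wild type values of the second probe set were the more scattered, and it lay above the array median on 3 of the 4 wild type arrays.

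The wild type array with the highest Klf4 was array 2 in both probe sets. The same array had the highest mean of 20 immediate early genes, at 6.66, where the other wild type arrays lay between 6.16 and 6.21 and the transgenic arrays between 6.43 and 6.62. It also had the highest fibroblast marker mean, at 7.99, against 6.60 to 7.24 in the other wild type arrays and 6.48 to 6.70 in transgenic arrays. Other lists were highest there too, such as smooth muscle (8.43), leukocyte (5.56) and TGF-beta genes (7.36), while luminal epithelial markers (10.32) were not. The part of any of these in the Klf4 values was not tested. Without wild type array 2 the Klf4 log2 fold change was 2.88, and with each array left out in turn it lay between 2.60 and 2.88.

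**Figure D1:**
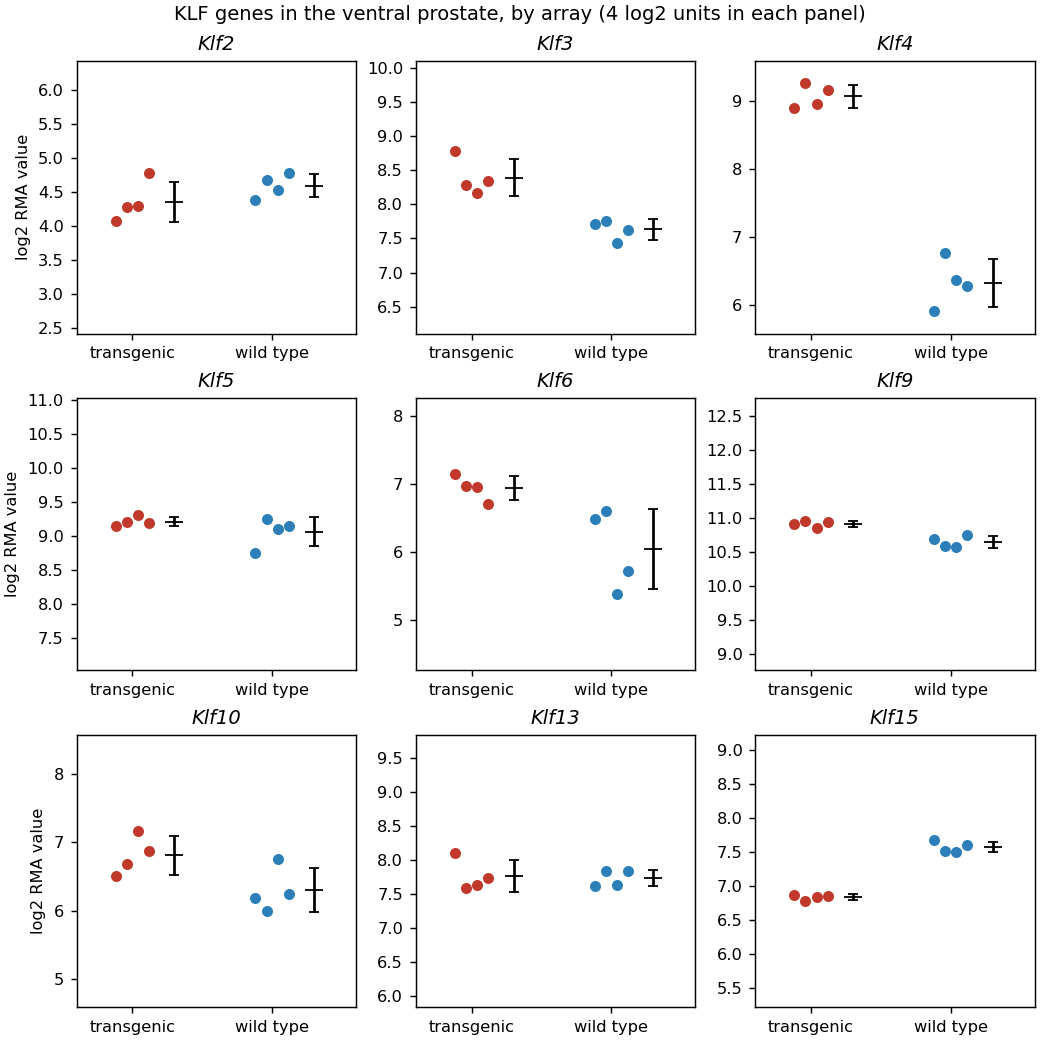
Log2 RMA values of the 9 KLF genes in the 4 transgenic (red) and 4 wild type (blue) arrays, 1 point an array, with the mean and SD of each group in black; every panel spans 4 log2 units. The Klf4 points stand apart by 2.13 log2 units, those of Klf3 by 0.41 and of Klf15 by 0.63, and those of Klf13 overlap.

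Klf3, which represses genes through the CtBP corepressors, was higher in transgenic prostates by its probe set with the highest mean. That probe set stood at 8.78, 8.29, 8.17 and 8.34 in transgenic arrays, against 7.72, 7.76, 7.43 and 7.62 in wild type. All transgenic arrays lay above all wild type arrays, and transgenic array 1 was the highest. The means were 8.40 ± 0.27 in transgenic and 7.63 ± 0.15 in wild type samples (SD, n = 4 each), with a log2 fold change of 0.76 ± 0.14 (SE). Of the 3 Klf3 probe sets, a second was also past the threshold at 0.88 ± 0.21 (SE). It stood at 7.68, 7.35, 6.78 and 6.73 in transgenic arrays, against 6.21, 6.42, 6.50 and 5.91 in wild type. The third did not pass, at 0.20 ± 0.11 (SE), with overlapping groups. The 3 probe sets therefore differed in size of change, and the mean of all 3 gave 0.61. The second probe set lost its call without transgenic array 2, at a log2 fold change of 0.80, and without wild type array 4, at 0.76.

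Klf6, an early response gene of wounding and growth factor signalling, was past the threshold by 1 of its 3 probe sets. That probe set stood at 7.14, 6.97, 6.95 and 6.71 in transgenic arrays, against 6.48, 6.61, 5.39 and 5.72 in wild type. The transgenic arrays were close together, while wild type arrays 1 and 2 came nearest to them, with a gap of 0.10, and arrays 3 and 4 lay lower. The means were 6.94 ± 0.18 in transgenic and 6.05 ± 0.59 in wild type samples (SD, n = 4 each), and the log2 fold change was 0.89 ± 0.24 (SE). The call was lost without any of the 4 transgenic arrays and without wild type array 3 or 4, where the log2 fold change lay between 0.67 and 0.97. The other Klf6 probe sets did not pass, at 0.30 ± 0.10 and 0.56 ± 0.17 (SE). The second of these was below the array median on all 4 wild type arrays, and it passed without transgenic array 2, at 0.66, and without wild type array 2, at 0.69. All 3 probe sets had positive fold changes, and their mean gave 0.58.

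Klf15, a regulator of amino acid and glucose metabolism that glucocorticoids induce, was the member past the threshold and lower in transgenic prostates. Its 1 probe set stood at 6.87, 6.78, 6.84 and 6.86 in transgenic arrays, against 7.67, 7.52, 7.50 and 7.60 in wild type. The groups were tight and separated by 0.63. The means were 6.84 ± 0.04 in transgenic and 7.57 ± 0.08 in wild type samples (SD, n = 4 each), a log2 fold change of -0.74 ± 0.09 (SE), so that wild type was 1.67-fold higher. The pooled SD within groups, 0.06, was above that of 1.1% of all genes. With each array left out in turn, the Klf15 log2 fold change lay between -0.76 and -0.70.

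Klf10 is induced by TGF-beta and slows growth in many cells. It stood at 6.51, 6.69, 7.17 and 6.87 in transgenic arrays, against 6.19, 6.00, 6.76 and 6.24 in wild type. The groups overlapped because wild type array 3 lay above transgenic arrays 1 and 2. The log2 fold change was 0.52 ± 0.18 (SE) and did not pass. Without wild type array 3 it was 0.67 and passed.

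Klf9, a hormone-responsive repressor, had 7 probe sets, none of them past the threshold. The probe set with the highest mean stood at 10.91, 10.95, 10.85 and 10.93 in transgenic arrays, against 10.68, 10.58, 10.57 and 10.75 in wild type. The groups did not overlap, with a gap of 0.11 and a log2 fold change of 0.27 ± 0.09 (SE). Over the 7 probe sets the log2 fold change ran from -0.19 to 0.28, 2 of them were below the median on all arrays, and the mean of all 7 gave 0.09. One of these 2 is marked in its name as shared between transcripts.

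Klf5, which promotes division of basal and progenitor epithelium, was above the array median on every array and did not pass. Its first probe set stood at 9.15, 9.20, 9.30 and 9.18 in transgenic arrays, against 8.75, 9.25, 9.10 and 9.14 in wild type, with a log2 fold change of 0.15 ± 0.12 (SE). The groups overlapped, and wild type array 1 was the lowest. The second stood at 6.59, 6.82, 6.87 and 6.62 in transgenic arrays, against 6.53, 6.46, 6.17 and 6.34 in wild type. These did not overlap, by 0.06, and the log2 fold change of 0.35 ± 0.11 (SE) did not pass, although it did without wild type array 1, at 0.40.

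Klf13, a close relative of Klf9 that activates the chemokine gene Ccl5 in T cells, had 3 probe sets with log2 fold changes from -0.09 to 0.03. The probe set with the highest mean stood at 8.10, 7.58, 7.63 and 7.74 in transgenic arrays, against 7.62, 7.84, 7.63 and 7.83 in wild type. The groups overlapped in all 3, and the other 2 probe sets were below the median on every array. Klf2, a factor of quiescent endothelium and T cells, stood at 4.07, 4.28, 4.29 and 4.77 in transgenic arrays, against 4.38, 4.67, 4.53 and 4.77 in wild type. All 8 values lay below the array medians, and its log2 fold change of -0.23 ± 0.15 (SE) did not pass.

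**Figure D2:**
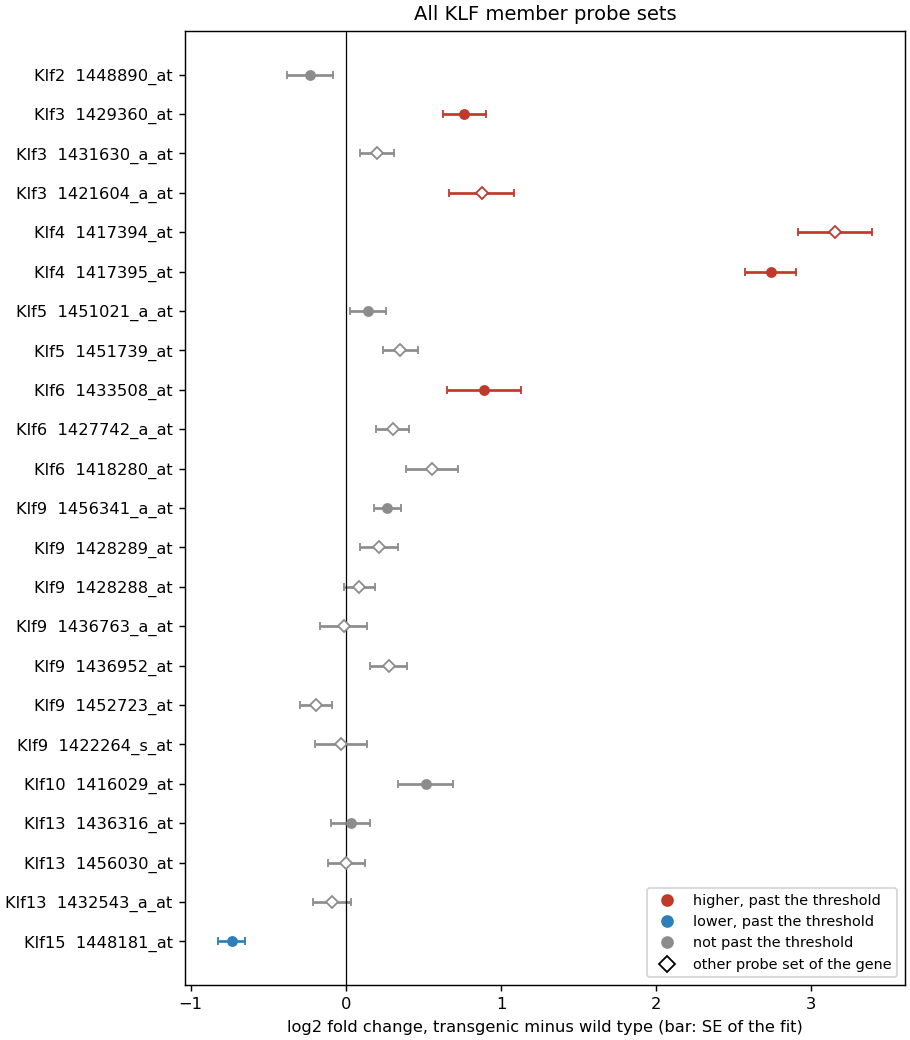
Log2 fold change, transgenic minus wild type, of all 23 KLF probe sets with the SE of the limma fit; filled circles are the probe sets that represent a gene, and colours mark those past the threshold. Both Klf4 probe sets lie near 3, 5 probe sets are higher and past the threshold, and Klf15 lies at -0.74.

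Counted over all 23 probe sets, 5 were past the threshold and higher (5.48% of all 22626 probe sets) and 1 was past it and lower (4.36%), or 6 in either direction (9.84%). The groups did not overlap in 8 with transgenic higher (7.59%) and in 1 with transgenic lower (7.38%), or 9 in either direction (15.0%). Of the 23, 14 were above the array median on all 8 arrays, 5 were below it on all 8 and 4 fell on either side. Without wild type array 4, 3 probe sets were past the threshold and higher, of Klf3 and Klf4.

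How the members varied within groups was read from the same log2 values by which they were chosen, so it is also a description. By the probe set that represents each gene, the pooled SD within groups was largest for Klf6, at 0.44, above that of 97.9% of all genes. Klf10 followed at 0.30 and Klf4 at 0.28. Klf15 and Klf9 were at the other end, at 0.06 and 0.07. The order does not hold over all probe sets, since the second Klf4 probe set was at 0.44 and a second Klf3 probe set at 0.37. Of the 36 pairs of members, correlated over 8 arrays after centring each group on its mean, Klf3 and Klf13 had the highest correlation and Klf3 and Klf10 the lowest. For Klf3 and Klf10, r was -0.83 (exact permutation p = 0.00868, two-sided, reordering arrays within groups) and rho was -0.83 (exact permutation p = 0.0174). Without the 2 arrays farthest from the Klf3 median r was -0.83. For Klf3 and Klf13, r was 0.84 (exact permutation p = 0.0625) and rho was 0.76 (exact permutation p = 0.0556), and r was 0.51 without the 2 farthest arrays. None of the 36 pairs passed after Benjamini-Hochberg adjustment (lowest adjusted p = 0.312 for r and 0.25 for rho by the exact permutation test), and 4 had an unadjusted p of r below 0.05.

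For the 3 members most variable by representing probe set, closeness was the correlation of group-centred values over the 8 arrays, among 2590 genes. The closest genes were Dvl1, Mrps6 and Hnrnpd for Klf6 (r of 0.94, 0.94 and 0.92). They were Jmjd6, Lgr5 and Pdia3 for Klf10 (all 0.83) and Fxyd1, Sparc and Bace2 for Klf4 (0.95, 0.93 and 0.93). These correlations share the same 8 arrays and are the highest of many, so they are a description.

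The rest of the family and the lists that follow were counted in the same fit, where 5.99% of all genes were higher and 4.98% lower. Klf1, Klf7, Klf12, Klf16 and Klf17, the 5 other KLF genes measured, gave 0 calls in limma, 0 at an unadjusted p under 0.05, and a median log2 fold change of 0.04. In 4 of the 5 both group means lay below every array median. Of 6 measured Sp genes, which encode the sister family with the same DNA preference, 1 rose and 5 did not pass. Sp5, a Wnt-induced repressor, stood at 6.60, 6.99, 6.97 and 7.07 in transgenic arrays, against 5.48, 5.61, 5.37 and 5.57 in wild type. The groups lay more than 0.9 apart, with a log2 fold change of 1.40 ± 0.12 (SE; limma adjusted p = 2.23e-05).

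Of 12 measured cofactors and ubiquitin ligases of KLF proteins, 1 rose and 11 missed the threshold, and the median was 0.05. The one was Sin3b, a corepressor scaffold that some KLF repressors bind, at 10.80 ± 0.01 in transgenic and 10.09 ± 0.23 in wild type samples (SD, n = 4 each; limma adjusted p = 0.00244). Ctbp1 and Ctbp2, the corepressors of Klf3, were at 0.08 and 0.10, and Wwp1, a ligase that marks KLF5 and KLF2 for degradation, was at 0.37 without passing. Of 7 genes of the ERK5 and MEF2 route that induces Klf2 and Klf4 in endothelium, with Srf, 0 passed in limma and 1 had an unadjusted p below 0.05, Mef2a, a MEF2 factor gene, at a log2 fold change of -0.41.

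Known inducers and co-regulated genes gave mixed counts, to be read beside the 5.99% of all genes that were higher and the 4.98% that were lower. Of 20 immediate early genes, the class to which Klf4, Klf6 and Klf10 also belong, 3 rose and 17 missed the threshold, and the median was 0.09. Jun, an AP-1 subunit, was at 6.95 ± 0.25 in transgenic and 6.19 ± 0.26 in wild type samples (SD, n = 4 each; limma adjusted p = 0.00942). Dusp1, a MAP kinase phosphatase, stood at 7.60, 7.69, 7.46 and 7.66 in transgenic arrays, against 5.94, 7.59, 5.90 and 5.90 in wild type. Wild type array 2 thus lay within the transgenic range, as it did for no Klf4 probe set. The Dusp1 call (limma adjusted p = 0.0267) was lost without any of 6 arrays, at log2 fold changes of 1.13 to 1.32, and that of Btg2 without any of 5 arrays, at 0.52 to 0.60. The Btg2 call was also lost with quantile normalization, at 0.46 (limma adjusted p = 0.0991), and with cyclic loess, at 0.51 (limma adjusted p = 0.0688). The part of the immediate early response in the KLF values was not tested.

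Of 10 glucocorticoid-induced genes, the class of Klf9 and Klf15, 1 rose, 3 fell and 6 missed the threshold, and the median was -0.31. Tsc22d3, a glucocorticoid-induced leucine zipper gene, was at 8.13 ± 0.42 in transgenic and 9.55 ± 0.34 in wild type samples (SD, n = 4 each; limma adjusted p = 0.00134). The metallothionein genes Mt2 and Mt1 fell by 2.01 and 0.79 on the log2 scale, while the growth inhibitor gene Ddit4 rose by 1.24. Of 11 FOXO-induced genes, 1 fell and 10 missed the threshold, and the median was -0.22. The one was Cited2, a transcription cofactor gene, at -0.89 ± 0.17 (SE; limma adjusted p = 0.00639). With Cited2, 5 of the 11 had an unadjusted limma p below 0.05. The others went both ways, Ccng2 at 0.46 and Txnip at 0.44, Bcl6 at -0.48 and Irs2 at -0.47. In 3 of the 11 both group means lay below every array median.

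Of 12 genes of the TGF-beta pathway, the inducer of Klf10, 2 rose, 1 fell and 9 missed the threshold, and the median was -0.08. The ligand gene Tgfb2 stood at 6.00, 5.61, 5.51 and 5.22 in transgenic arrays, against 7.57, 7.26, 6.84 and 6.94 in wild type, a log2 fold change of -1.57 ± 0.19 (SE; limma adjusted p = 0.000272). The receptor gene Tgfbr2 rose by 1.03 and Smad4, the shared SMAD, by 0.66, while the ligand gene fell. With every probe set of Tgfbr2 averaged its log2 fold change was 0.45 (limma adjusted p = 0.00713).

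Genes known from other tissues as targets of KLF proteins were counted by their factor. Of 5 Klf15 targets in liver and muscle, 1 fell and 4 missed the threshold, and the median was -0.38. The one was Prodh, the first enzyme of proline breakdown, which stood at 6.41, 5.63, 6.14 and 6.31 in transgenic arrays, against 7.53, 8.05, 7.24 and 7.92 in wild type. Its groups did not overlap, and the log2 fold change was -1.56 ± 0.20 (SE; limma adjusted p = 0.000484). Bcat2, of branched chain amino acid breakdown, was at -0.44 ± 0.14 (SE) and did not pass. Of 8 targets of KLF4 or KLF5, 1 rose, 2 fell and 5 missed the threshold, and the median was -0.12. The list mixes targets that KLF4 activates and represses, so its count and median have no single direction to be read. Cdh1, the E-cadherin gene that KLF4 activates, rose by 0.82 (limma adjusted p = 0.0074). Pdgfa, a KLF5 target in smooth muscle, fell by 0.89 (limma adjusted p = 0.00045), and Odc1, which KLF4 represses in human colon cells, fell by 0.84 (limma adjusted p = 0.0124). Cdkn1a, the cell cycle inhibitor gene that KLF4 activates, was at -0.02 ± 0.12 (SE) and Ccnd1 at -0.54 ± 0.20 (SE), neither passing. Of 4 Klf2 targets 1 fell, S1pr1, a call lost without any of 6 arrays at log2 fold changes of -0.57 to -0.42, and both group means lay below every array median in the other 3.

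**Figure D3:**
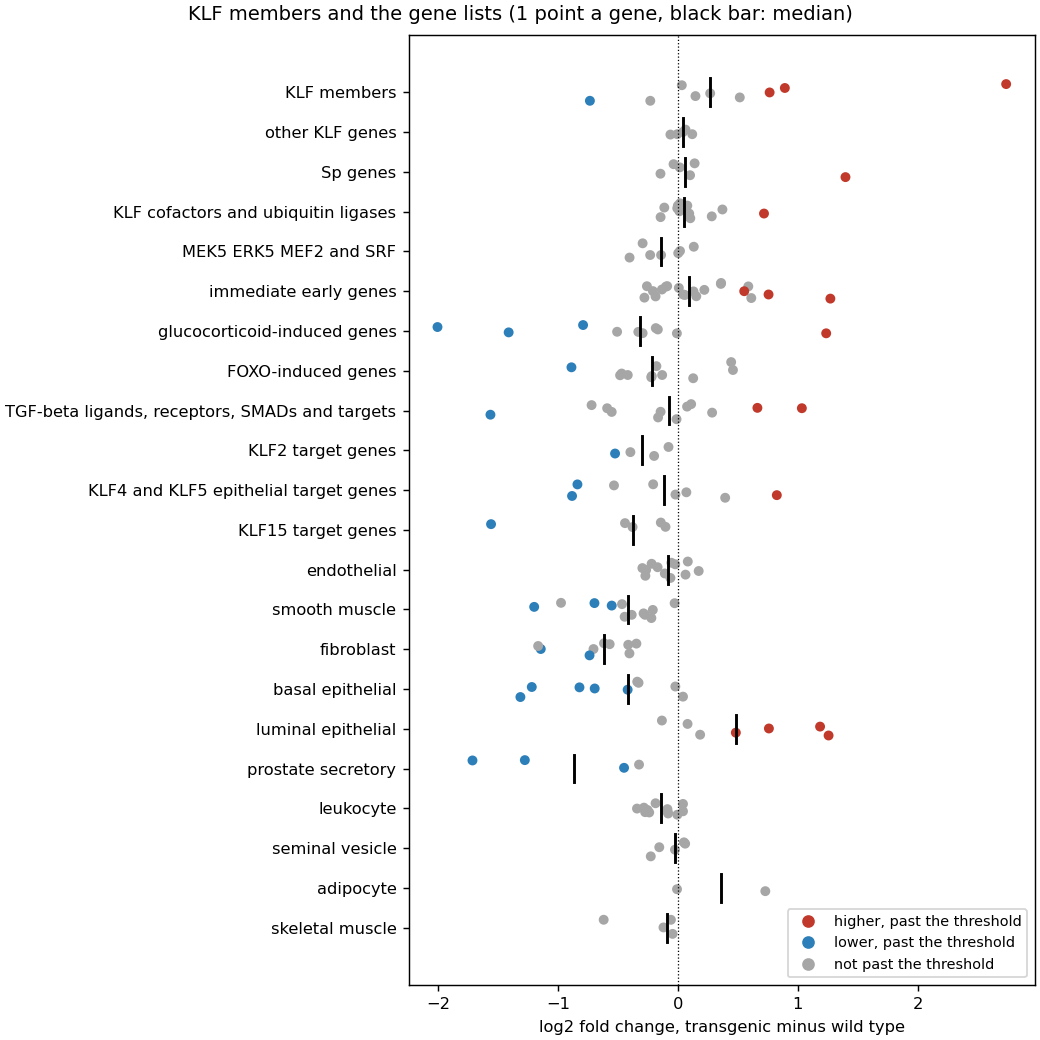
Log2 fold change, transgenic minus wild type, of the 9 KLF genes and of the genes of each list, 1 point a gene, with the list median as a black bar and colours for genes past the limma threshold. Klf4, at 2.74, lies farthest to the right of all genes shown, while the 5 other KLF genes lie between -0.06 and 0.12.

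Markers of several cell types were counted in the same fit, where 5.99% of all genes were higher and 4.98% lower. In bulk tissue, fewer cells of a type and less RNA per cell cannot be told apart. Of 7 luminal epithelial markers 4 rose and 0 fell, and the mean of the 7 lay between 10.85 and 10.93 in transgenic and between 10.31 and 10.43 in wild type arrays. Of 9 basal epithelial markers, the compartment known for Klf5, 0 rose and 5 fell, and their mean lay between 5.99 and 6.19 in transgenic and between 6.60 and 6.73 in wild type arrays. Krt5, a basal keratin gene, was at 7.11 ± 0.22 in transgenic and 8.33 ± 0.24 in wild type samples (SD, n = 4 each; limma adjusted p = 0.000241).

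Of 12 smooth muscle markers 3 fell and 0 rose, with means between 7.43 and 7.73 in transgenic and between 7.81 and 8.43 in wild type arrays, and of 9 fibroblast markers 2 fell and 0 rose. The muscle genes that fell were Pcp4, Smtn and Mylk, and the fibroblast genes were Dcn and Pdgfra. The call of Mylk was lost without any of 5 arrays, at log2 fold changes of -0.56 to -0.46, and that of Pdgfra without any of 6 arrays, at -0.75 to -0.55. Of 12 endothelial markers, the cells known for Klf2 and Klf4, 0 passed in limma and 1 had an unadjusted p below 0.05, and in 7 both group means lay below every array median, Pecam1 and Cdh5 among them. Of 12 leukocyte markers 0 passed in limma and 0 had an unadjusted p below 0.05, with 7 below every array median in both groups and means between 5.19 and 5.28 in transgenic and between 5.05 and 5.56 in wild type arrays. Of 2 adipocyte and 4 skeletal muscle markers 0 passed in limma, with 1 skeletal muscle marker at an unadjusted p below 0.05. The adipocyte mean was uneven among arrays, between 4.16 and 6.61 in transgenic and between 4.63 and 5.72 in wild type arrays. The part of these cell types in the KLF differences was not tested.

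Prostate and seminal vesicle markers were set against the tissue label. No measured gene was taken as a marker of the ventral lobe alone, and Sbp and Tgm4 of the secretory list were not measured. Pbsn, the probasin gene of prostate epithelium, averaged 11.57 ± 0.45 in transgenic and 12.85 ± 0.35 in wild type samples (SD, n = 4 each), and 3 of the 4 secretory genes measured fell, with Msmb and Azgp1 the others. The call of Azgp1 was lost without any of 5 arrays, at -0.47 to -0.43. Spink1, the remaining secretory gene measured, averaged 13.53 in transgenic and 13.85 in wild type samples and did not pass. All 5 seminal vesicle markers lay below every array median in both groups. Array medians lay between 5.40 and 5.51. For the Gapdh control, the log2 value of the 3 prime probe set less that of the 5 prime one, a sign of RNA quality, lay between 0.47 and 0.99 in transgenic and between 1.05 and 1.49 in wild type arrays. That of beta actin lay between 1.41 and 1.80 in transgenic and between 1.63 and 1.80 in wild type arrays. The part of RNA quality in the KLF differences was not tested.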

How the data were processed

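Total RNA of 8 ventral prostate samples, purified with Trizol and a column, was run on Affymetrix mouse arrays, per the labels' protocols. The submitters' processing notes name RMA, without a version, for the deposited log2 values; RMA applies quantile normalization, which removes a difference that affects all transcripts alike. The table held 22690 probe sets, of which 64 controls were left out. Names came from the platform annotation, with symbols updated through RefSeq (assembly GRCm38.p6): 20380 probe sets had 1 symbol, 691 several and 1555 none. The number of arrays limits the precision.

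The other 22626 entered 1 fit of the group difference (lmFit and eBayes of limma 3.58.1, R 4.3.3). Its p-values were adjusted by Benjamini-Hochberg over the whole table, and the fit was tested on simulated data. There it recovered 26.0% of log2 changes of 0.5, 82.0% of those of 1 and 80.0% of those of -1. A gene that missed the threshold is therefore not shown to be unchanged. The members, the gene lists and the naming rule were chosen with earlier results of these data known. The rule names all 9 members, up to 3 called genes of each of 21 lists, and the 3 genes most like each of the 3 most variable members; other list genes were named after their values were seen. Alternatives are given in the closing section. Of the promoter table, 7 members had an entry.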

Additional observations from a re-analysis of the deposited data

Results flagged for a closer look

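In 1 of 46 groups of 4 arrays examined over the 23 KLF probe sets, an array stood far from the others: a Klf9 probe set was at 9.65 in transgenic array 1, where the other transgenic arrays lay between 10.07 and 10.14. Chance marks about 1 in 20 such groups, and 5.15% were marked over all probe sets. The log2 fold change of this probe set was 0.21, and 0.33 without that array, and it passed the threshold in neither fit.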

How the results depend on the processing

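The 15 alternatives left Klf3 and Klf4 past the threshold and higher, and Klf15 past it and lower, in all of them. Leaving out each array in turn gave 2 to 3 member genes higher, with 1 lower each time, and 3 to 6 member probe sets higher, with 1 lower each time. Klf6 was lost without any of 6 arrays and kept under the other alternatives. Arrays with the same replicate number had deviations that correlated at -0.31 to 0.33, and arrays with different numbers at -0.46 to 0.47. With so few pairs, these values cannot decide whether the shared numbers pair the samples. With the replicate number as a block, 4 member genes were higher, Klf10 being added, and 6 probe sets. With array weights, 4 were higher, Klf9 being added. Quantile and cyclic loess normalization each gave 7 probe sets higher. Averaging every probe set of Klf9 gave a log2 fold change of 0.087, since its 7 probe sets differ in sign. Without the dimmest 40% of probe sets and with a robust prior that follows the mean level, the same 3 genes were higher. Among the list genes, the replicate block ended the calls of Odc1 (adjusted p = 0.0506), Krt8 (adjusted p = 0.0505), Btg2 (adjusted p = 0.0546) and Pdgfra (adjusted p = 0.0549) in limma. Averaging every probe set also ended the call of Pdgfra, at a log2 fold change of -0.44, and that of Krt8 was lost without transgenic array 4 (0.46) or wild type array 3 (0.44). Levels below the array median limit what can be read of Klf2, of 2 Klf9 and 2 Klf13 probe sets and of 7 of 12 endothelial markers. Among other lists, both group means were that low for 6 of 20 immediate early genes and 3 of 6 Sp genes. The same held for 3 of 11 FOXO-induced genes, 3 of 12 TGF-beta genes and 7 of 12 leukocyte markers.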
